A study of Mus musculus with 6 samples.

Results

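The genes of MHC class I antigen presentation described here are the heavy chains *H2-K1* and *H2-D1*, the light chain *B2m*, the peptide transporter subunits *Tap1* and *Tap2*, tapasin (*Tapbp*), the immunoproteasome subunits *Psmb8*, *Psmb9* and *Psmb10*, and the transactivator *Nlrc5*. They were chosen by gene symbol, and all 10 were found among the 55335 genes of the table and among the 13367 genes tested. The libraries came from bone marrow-derived macrophages (BMDMs, grown from bone marrow for 7 days in 25 ng/ml M-CSF) that had shared a culture with neutrophils for 24 h. The neutrophils had been isolated by MACS from the spinal cord lesion at 3 dpi (days after spinal cord injury, SCI) of *Cd177* WT or *Cd177* KO mice, and BMDMs were then sorted as Ly6G- cells. There were 3 libraries with WT neutrophils and 3 with KO neutrophils, called WT and KO libraries below, and the BMDMs were labelled genotype WT in all 6. Male C57BL/6 adults were used according to the methods, which name a supplier for the *Cd177* KO mice but no age or breeding of their own. The number of mice behind a library is not stated, so the p-values measure only the spread between these libraries, which may be technical. No library of BMDMs grown without neutrophils was analysed here.

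MHC class I molecules carry peptides from inside the cell to its surface, where CD8+ T cells read them. Proteasomes cut proteins into peptides, TAP moves the peptides into the endoplasmic reticulum, and tapasin holds an empty heavy chain and β2-microglobulin next to TAP until a fitting peptide is bound. Interferons exchange the catalytic subunits of the proteasome for the immunoproteasome subunits, and NLRC5 acts on class I promoters through a composite element known as the SXY module. Macrophages carry class I at rest and raise the whole pathway when stimulated.

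Levels are given in FPKM, the number of fragments per kilobase of a transcript divided by the size of the library, as the authors deposited them. The FPKM columns summed to between 302532 and 340717, and the low values imply a depth of about 17454600 to 20254300 fragments per library, a figure that could not be checked against read counts. Correlations between libraries were 0.967 to 0.985 within groups and 0.905 to 0.917 between them, and replicate 3 of both groups stood apart from the other replicates on the second principal component. *Cd177* itself had 0.544, 0.309 and 0.521 FPKM in the WT libraries and 1.79, 1.84 and 2.28 FPKM in the KO libraries. The deletion was in the added neutrophils and not in the sequenced BMDMs, so *Cd177* does not check the genotype of the BMDMs. Its level was higher in the libraries labelled KO (log2 fold change 1.37, limma adjusted p = 0.000827). A deletion of *Cd177* in the added neutrophils would not by itself raise it. Whether its reads came from neutrophils or BMDMs, and whether the labels hold, was not tested. Directions are given between libraries as labelled. Of 8 macrophage markers all were detected, with *Lyz2* the highest at 4462 to 5731 FPKM in WT and 5881 to 6588 FPKM in KO. Summed FPKM of 14 neutrophil markers was 202 to 261 in WT and 555 to 570.2 in KO.

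Promoters were searched because the SXY module is a known feature of class I genes. The RefSeq table of promoters (GRCm38.p6, 250 bases before to 50 bases after each start site) held 8 of the 10 genes, all but *Tap2* and *Nlrc5*. Of these, 5 are given as sequence: the 3 genes of the complete class I molecule, which share one arrangement of motifs, and a transporter and an immunoproteasome gene, which do not have it. They lie at chr17:34000298-34000597 (minus strand, the first of 2 windows of this gene), chr17:35262844-35263143 (plus), chr2:122147437-122147736 (plus), chr17:34187306-34187605 (plus) and chr17:34197945-34198244 (plus). Each is written 5′ to 3′ on the strand of its gene, and capitals mark every match on either strand to ISRE (GAAA and GAAA with 2 bases of any kind between them), GAS (TTCNNNGAA), NF-kB (GGG, 2 bases of any kind, TT, 1 base of any kind, CC), CRE core (TGACG) or CCAAT box (CCAAT).
H2-K1: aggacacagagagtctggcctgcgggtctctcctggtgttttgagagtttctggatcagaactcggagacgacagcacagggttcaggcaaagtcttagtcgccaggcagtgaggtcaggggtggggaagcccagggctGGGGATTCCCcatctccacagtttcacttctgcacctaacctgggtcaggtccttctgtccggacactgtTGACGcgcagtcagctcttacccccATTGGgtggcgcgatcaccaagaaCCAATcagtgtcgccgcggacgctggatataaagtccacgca
H2-D1: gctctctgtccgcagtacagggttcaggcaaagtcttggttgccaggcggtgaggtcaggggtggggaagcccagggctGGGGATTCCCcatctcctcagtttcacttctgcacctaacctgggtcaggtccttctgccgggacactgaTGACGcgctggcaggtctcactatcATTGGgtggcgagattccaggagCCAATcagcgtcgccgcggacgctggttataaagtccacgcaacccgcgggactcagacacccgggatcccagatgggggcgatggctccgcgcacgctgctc
B2m: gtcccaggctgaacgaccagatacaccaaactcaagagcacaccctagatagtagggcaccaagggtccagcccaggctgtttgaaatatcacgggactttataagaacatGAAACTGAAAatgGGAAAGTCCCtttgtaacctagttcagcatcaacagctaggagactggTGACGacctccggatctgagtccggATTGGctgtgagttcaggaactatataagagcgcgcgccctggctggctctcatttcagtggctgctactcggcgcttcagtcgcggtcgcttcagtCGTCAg
Tap1: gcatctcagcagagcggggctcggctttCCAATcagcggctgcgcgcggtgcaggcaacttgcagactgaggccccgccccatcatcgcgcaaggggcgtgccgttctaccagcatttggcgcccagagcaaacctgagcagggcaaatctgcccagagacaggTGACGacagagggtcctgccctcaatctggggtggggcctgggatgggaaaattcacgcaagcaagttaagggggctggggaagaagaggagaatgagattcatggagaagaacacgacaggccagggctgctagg
Psmb8: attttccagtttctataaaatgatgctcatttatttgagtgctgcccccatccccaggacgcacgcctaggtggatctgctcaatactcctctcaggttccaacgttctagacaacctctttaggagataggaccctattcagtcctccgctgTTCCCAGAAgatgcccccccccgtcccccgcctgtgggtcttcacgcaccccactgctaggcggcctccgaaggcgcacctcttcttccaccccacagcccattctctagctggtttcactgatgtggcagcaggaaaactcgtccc

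In *H2-K1*, *H2-D1* and *B2m*, TGACG was followed after 20 bases by ATTGG, which is the CCAAT box read on the other strand. The SXY module is known to hold a CRE-like X2 box and a reversed CCAAT Y box in this order. The arrangement with exactly this spacing was found in 31 of the 32851 windows of the table (0.0944%), which belong to 27 gene symbols. Another of these was *H2-M3*, a nonclassical class I gene. An NF-kB match began 70 bases before TGACG in both *H2-K1* and *H2-D1* and 48 bases before it in *B2m*, where the match lies on the other strand. *B2m* also held the only match of the 8 genes to the exact ISRE pattern, at position -139 from the start site. Looser forms of this element were not searched for. The *Tap1* window had TGACG at -86 and CCAAT at -222 without the fixed spacing, and it shares 275 bases with the window of *Psmb9*, which is read the other way. *Psmb8* had a GAS match at -97, *Tapbp* had reversed CCAAT boxes at -248 and -165, and *Psmb10* held none of the 5 motifs. The RefSeq start sites are not always where the GENCODE annotation starts the gene. The *Tapbp* window lies at 33919228 to 33919527, where GENCODE starts the gene at 33915899. The *Psmb8* window begins at 34197945 and the gene at 34197721. Positions and missing matches therefore hold for these windows only. Over all windows, ISRE was found in 3.44%, GAS in 8.30%, NF-kB in 4.79%, the CRE core in 20.8% and the CCAAT box in 37.4%. No 2 marked matches of the 5 sequences overlap. A match is a description of letters and does not show that a factor was bound in these cells.

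**Figure D1:**
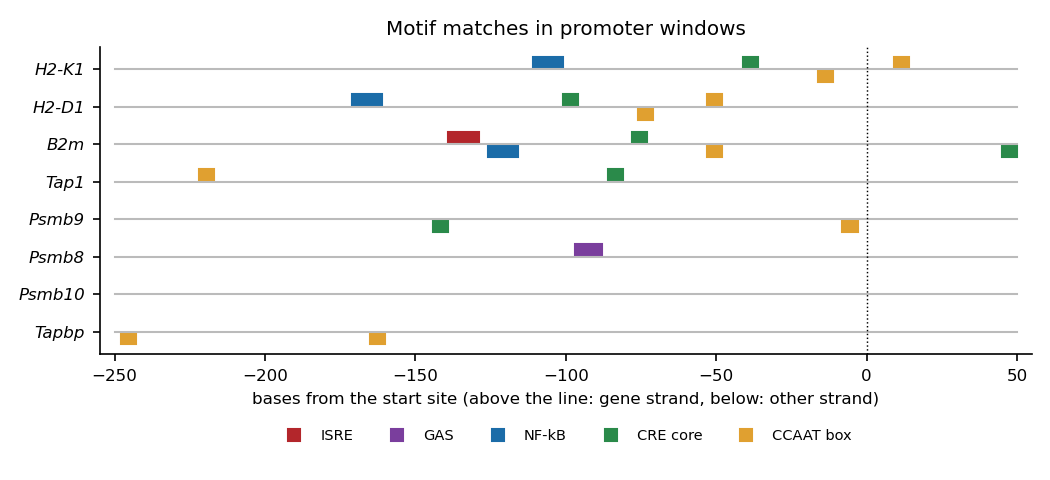
Matches of the 5 motifs in the promoter windows of the 8 genes with a window, by distance in bases from the start site. Boxes above a line are on the strand of the gene and boxes below it on the other strand, and in *H2-K1*, *H2-D1* and *B2m* a CRE core is followed by a reversed CCAAT box after the same 20 bases.

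The class I and immunoproteasome genes were lower in the libraries of BMDMs that had shared their culture with *Cd177* KO neutrophils, by the labels. Of the 10 genes 9 fell (limma on log2(FPKM + 0.5), Benjamini-Hochberg adjusted p under 0.05 over all 13367 genes tested) and none rose, where 10.5% of all tested genes fell and 27.1% rose. Under median-of-ratios scaling all 10 fell, beside 16.9% of all genes that fell and 15.4% that rose. For 6 of them, *B2m*, *Tap1*, *Tapbp*, *Psmb8*, *Psmb10* and *Nlrc5*, the change was more than 2-fold with an unadjusted limma p under 0.05. By the same rule 4.43% of all tested genes were lower and 6.68% were higher. Every KO library lay below every WT library for all 10 genes, a pattern that 14.4% of all genes had, while 37.5% had the reverse. The median log2 fold change of the 10 genes was -1.23, against 0.19 over all genes tested, and their summed FPKM was 1.29% to 1.46% of the column total in WT and 0.690% to 0.772% in KO. The 9 genes passed the test in all 14 alternative analyses, and *H2-D1* passed it in 5 of them. Neutrophil transcripts moved with the groups too. Of the 14 neutrophil markers 12 were higher in every KO library than in any WT library, *S100a9* (a calprotectin subunit) was the highest of them and *Ly6g*, the sorting marker, was listed at 0, 0 and 0 FPKM in WT and had 0.660, 0.547 and 0.403 FPKM in KO. *Mmp8* (neutrophil collagenase), of the same list, fell from 21.8, 24.5 and 19.5 FPKM in WT to 9.88, 10.2 and 9.27 FPKM in KO (log2 fold change -1.12, limma adjusted p = 0.000359). The part of these transcripts in the fall of the class I genes was not tested. In bulk libraries, fewer cells with high levels and less RNA per cell cannot be told apart.

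**Figure D2:**
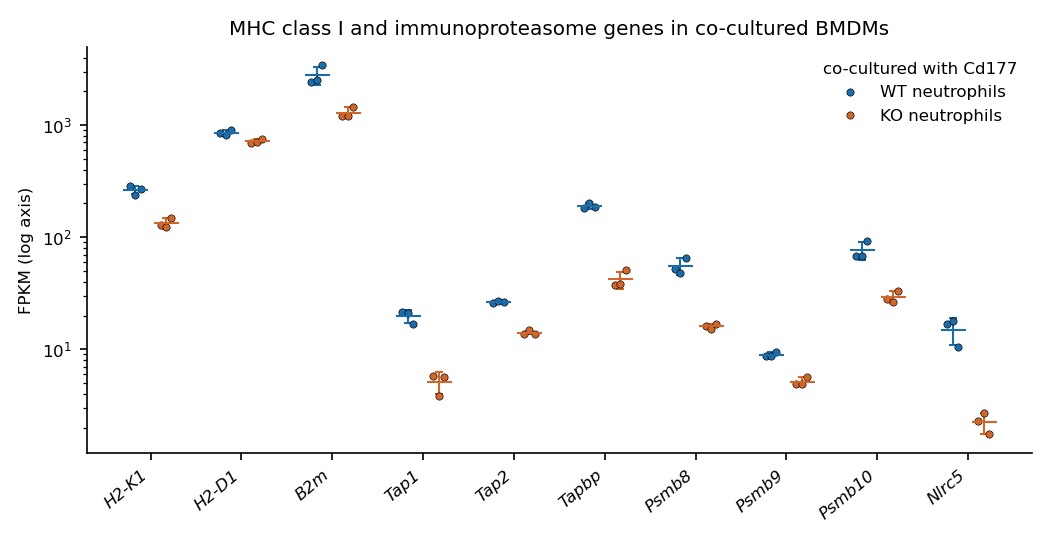
FPKM (log axis) of the 10 genes in each library, with points for libraries, long bars for the mean and error bars for the SD (n = 3 per group). The KO points lie below the WT points for all 10 genes, by least for *H2-D1* and by most for *Nlrc5*.

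The heavy chains form the peptide groove, and *H2-K1* and *H2-D1* encode the classical K and D molecules. *H2-K1* (ENSMUSG00000061232) had 285, 239 and 271 FPKM in WT replicates 1, 2 and 3 and 127, 123 and 149.5 FPKM in KO replicates 1, 2 and 3. The groups were far apart compared with the spread within each. Its log2 fold change was -0.99 (standard error 0.11, limma adjusted p = 0.000745). *H2-D1* (ENSMUSG00000073411) had 850.1, 811 and 912 FPKM in WT and 694, 709.8 and 754 FPKM in KO. All KO values lay below all WT values, but the gap between the highest KO and the lowest WT library was narrow. Its log2 fold change was -0.25 (95% confidence interval -0.46 to -0.04, limma adjusted p = 0.0605), so *H2-D1* did not pass the test. It passed when libraries were scaled by median-of-ratios size factors (log2 fold change -0.48, limma adjusted p = 0.0141) and without replicate 3 of both groups (limma adjusted p = 0.0109). The 2 heavy chains are close paralogs of each other and of other class I genes, and how reads that fit several of them were assigned is not stated, so the split between them is uncertain.

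β2-microglobulin is the invariant light chain that every class I heavy chain needs to reach the surface. *B2m* (ENSMUSG00000060802) had 2441, 2536 and 3399 FPKM in WT and 1203, 1213 and 1460 FPKM in KO, which made it the most abundant of the 10 genes in both groups. Replicate 3 was the highest of its group on both sides. The log2 fold change was -1.10 (standard error 0.16, limma adjusted p = 0.00205).

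The ratio of heavy to light chains within a library, which does not depend on scaling between libraries, was higher in the KO libraries. The summed FPKM of *H2-K1* and *H2-D1* was 0.465, 0.414 and 0.348 times that of *B2m* in WT and 0.683, 0.687 and 0.619 times in KO. All KO ratios lay above all WT ratios, with means of 0.409 ± 0.059 and 0.663 ± 0.038 (SD, n = 3). Most of the heavy chain FPKM was *H2-D1*. *H2-K1* was 0.335, 0.295 and 0.297 times *H2-D1* in WT and 0.183, 0.173 and 0.198 times in KO. The log2 difference was 0.71 for the heavy to light chain ratio and -0.74 for *H2-K1* over *H2-D1* (2-sided exact permutation test, p = 0.1 for each and 0.117 adjusted over the 7 ratios computed, of which the second was added after its values were seen). With 3 libraries against 3, p = 0.1 is the smallest value that the exact permutation test can give, so none of the 7 ratios could pass the threshold.

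TAP1 and TAP2 together form the peptide transporter. *Tap1* (ENSMUSG00000037321) had 21.4, 21.3 and 16.9 FPKM in WT and 5.79, 3.83 and 5.71 FPKM in KO. *Tap2* (ENSMUSG00000024339) had 25.7, 26.9 and 26.5 FPKM in WT and 13.8, 14.8 and 13.8 FPKM in KO. Both genes fell, and *Tap1* ranged more widely within groups than *Tap2*. The log2 fold change was -1.87 for *Tap1* (standard error 0.18, limma adjusted p = 0.000348) and -0.88 for *Tap2* (standard error 0.08, limma adjusted p = 0.000242). Their confidence intervals, -2.29 to -1.45 and -1.06 to -0.70, do not overlap, though the difference between the 2 genes was not tested.

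Tapasin bridges TAP and the empty class I molecule and edits the bound peptide. *Tapbp* (ENSMUSG00000024308) had 181, 201 and 185 FPKM in WT and 37.2, 38.5 and 50.5 FPKM in KO. Its lowest WT library was several times its highest KO library. The log2 fold change was -2.17 (standard error 0.13, limma adjusted p = 4.83e-05), which corresponds to a level 4.49-fold higher in WT on this scale.

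The immunoproteasome subunits replace the catalytic β subunits of the standard proteasome, *Psmb8* in the place of *Psmb5*, *Psmb9* in that of *Psmb6* and *Psmb10* in that of *Psmb7*. *Psmb8* (ENSMUSG00000024338) had 52.3, 47.7 and 65.8 FPKM in WT and 16.0, 15.3 and 16.9 FPKM in KO. *Psmb10* (ENSMUSG00000031897) had 68.6, 67.9 and 93.2 FPKM in WT and 28.1, 26.5 and 33.4 FPKM in KO. WT replicate 3 was the highest library for both, and its distance from the other WT libraries was smaller than that between the groups. *Psmb9* (ENSMUSG00000096727) was the least abundant of them, with 8.77, 8.68 and 9.45 FPKM in WT and 4.88, 4.86 and 5.71 FPKM in KO. The log2 fold changes were -1.74 for *Psmb8* (standard error 0.13, limma adjusted p = 0.000127), -1.36 for *Psmb10* (standard error 0.15, limma adjusted p = 0.000741) and -0.75 for *Psmb9* (standard error 0.10, limma adjusted p = 0.00146). The annotations of *Psmb9* and *Tap1* run in opposite directions and overlap over 212 bases, and a strand-specific count is not stated, so reads in this stretch could belong to either gene.

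Of the constitutive catalytic subunits, *Psmb5* and *Psmb6* fell and *Psmb7* did not pass the test. *Psmb5* had 199.9, 187 and 261 FPKM in WT and 108, 104 and 114 FPKM in KO (log2 fold change -0.97, limma adjusted p = 0.00186). *Psmb6* had 82.6, 77.5 and 110.7 FPKM in WT and 56.8, 58.3 and 69.3 FPKM in KO (log2 fold change -0.54, limma adjusted p = 0.0327). *Psmb7* had 28.3, 26.7 and 40.4 FPKM in WT and 25.0, 24.3 and 29.7 FPKM in KO, and these ranges overlap (log2 fold change -0.25, 95% confidence interval -0.66 to 0.16, limma adjusted p = 0.295). The call of *Psmb6* was lost without KO replicate 1 (limma adjusted p = 0.108), without KO replicate 2 (0.104), without WT replicate 1 (0.0589) and with no filter on low values (0.0765).

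Measured against the subunits they replace, the immunoproteasome subunits were lower in every KO library than in any WT library for 2 of the 3 pairs. The summed FPKM of *Psmb8*, *Psmb9* and *Psmb10* was 0.417, 0.427 and 0.408 times that of *Psmb5*, *Psmb6* and *Psmb7* in WT and 0.258, 0.2495 and 0.263 times in KO. The groups did not overlap (log2 difference -0.70, exact permutation p = 0.1, adjusted over the 7 ratios 0.117). *Psmb8* was 0.262, 0.255 and 0.252 times *Psmb5* in WT and 0.148, 0.147 and 0.148 times in KO, a log2 difference of -0.80 (exact permutation p = 0.1). *Psmb10* was 2.42, 2.54 and 2.30 times *Psmb7* in WT and 1.12, 1.09 and 1.12 times in KO, a log2 difference of -1.12 (exact permutation p = 0.1). Both pairs were tight within groups and did not overlap between them. *Psmb9* was 0.106, 0.112 and 0.0853 times *Psmb6* in WT and 0.0859, 0.0835 and 0.0825 times in KO. WT replicate 3 reached into the KO range of this ratio, whose log2 difference was -0.26 (exact permutation p = 0.2, adjusted 0.2).

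**Figure D3:**
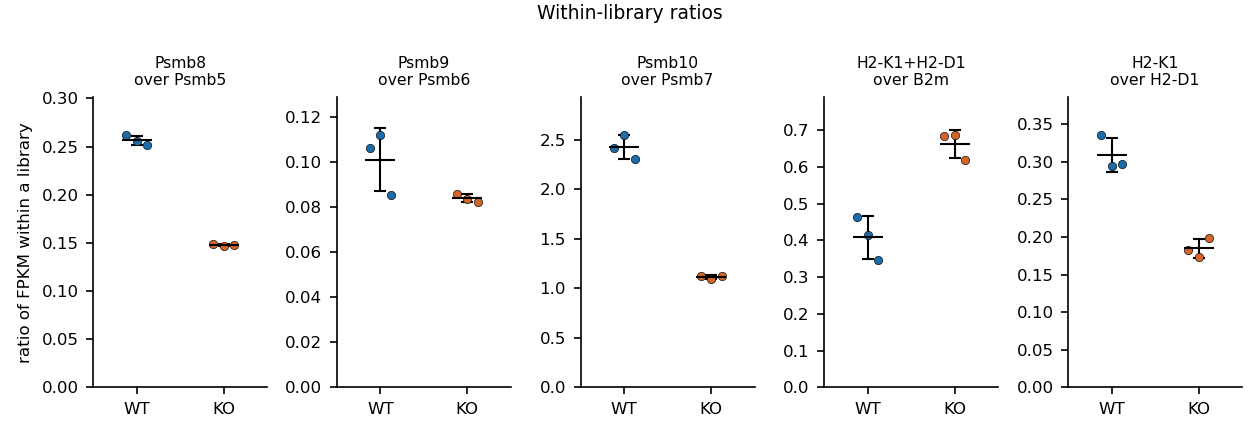
Ratios of FPKM within each library, one panel per ratio on a linear axis from 0, with points for libraries and bars for the mean and SD (n = 3 per group). WT and KO libraries are apart in 4 panels, *Psmb9* over *Psmb6* overlaps, and the ratio of heavy to light chains is the one that is higher in KO.

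NLRC5 is the transactivator of the class I genes. *Nlrc5* (ENSMUSG00000074151) had 16.8, 17.8 and 10.4 FPKM in WT and 2.27, 2.69 and 1.74 FPKM in KO. Replicate 3 was the lowest of its group on both sides, whereas it was the highest for *H2-D1*, *B2m*, *Psmb8*, *Psmb9* and *Psmb10*. The log2 fold change was -2.48 (95% confidence interval -3.02 to -1.94, limma adjusted p = 0.000315), the largest of the 10 genes. Over all 14 alternatives it ranged from -2.72 to -2.28. *Ciita*, the related transactivator of class II genes, had 0.331 to 0.486 FPKM in WT and at most 0.306 FPKM in KO, too low to be tested.

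**Figure D4:**
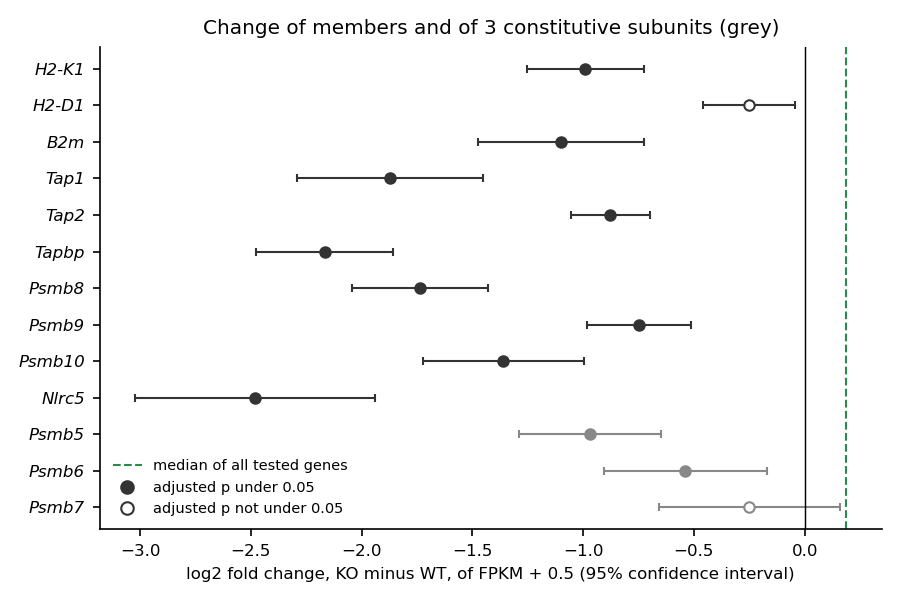
Log2 fold change (KO minus WT, of FPKM + 0.5) of the 10 genes and, in grey, of the constitutive subunits *Psmb5*, *Psmb6* and *Psmb7*, with 95% confidence intervals. Filled points passed the test at an adjusted p under 0.05, the dashed line is the median of all tested genes (0.19), and the points run from -2.48 for *Nlrc5* to -0.25 for *H2-D1* and *Psmb7*.

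The order of the genes by mean level was nearly the same in both groups. *B2m* came first, followed by *H2-D1*, *H2-K1*, *Tapbp*, *Psmb10*, *Psmb8* and *Tap2*, each with a range apart from the next. Below these, *Tap1* and *Nlrc5* overlapped in WT with *Psmb9* last, and in KO *Psmb9* and *Tap1* overlapped with *Nlrc5* last. Pairwise Pearson correlations between the 10 genes over the 6 libraries lay between 0.795 and 0.997 (median 0.961 of 45 pairs). These are descriptions, since the libraries form 2 groups that each of the 10 genes separates.

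The genes that work next to class I in peptide loading and trimming moved in part. Of 12 genes tested 6 fell and 1 rose, beside 10.5% and 27.1% of all tested genes, with a median log2 fold change of -0.37. *Tapbpl* (TAPBPR, a second peptide editor) had 26.4, 24.6 and 20.1 FPKM in WT and 7.49, 7.41 and 6.48 FPKM in KO (log2 fold change -1.66, limma adjusted p = 0.000129). *Calr* (calreticulin, a chaperone of the loading complex) had 669.9, 646 and 692 FPKM in WT and 281, 277 and 262 FPKM in KO (log2 fold change -1.29, limma adjusted p = 4.84e-05). *Pdia3* (ERp57, its thiol oxidoreductase) fell by 1.05 on the log2 scale (limma adjusted p = 0.00138). *Tpp2* (tripeptidyl peptidase II), which had the smallest difference in this list, had 8.52 to 10.2 FPKM in WT and 9.12 to 9.80 FPKM in KO.

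Among the other proteasome genes, the largest falls were in the PA28 activator. It binds the 20S core in place of the 19S regulator, is induced by interferon and consists of PSME1 and PSME2. *Psme2* had 99.1, 90.3 and 142.6 FPKM in WT and 28.2, 29.2 and 29.8 FPKM in KO (log2 fold change -1.88, limma adjusted p = 0.000291). *Psme1* had 61.2, 58.4 and 85.7 FPKM in WT and 23.3, 27.6 and 31.4 FPKM in KO (log2 fold change -1.29, limma adjusted p = 0.00168). They were the 2 of 10 activators and assembly factors that fell, none rose, and the median of the list was -0.05. Over all tested genes 10.5% fell and 27.1% rose. With median-of-ratios scaling 5 of the 10 fell, and without WT replicate 3, 3 fell and 1 rose. *Psme3* (PA28γ, a nuclear activator of another kind) had 29.0 to 33.4 FPKM in WT and 27.9 to 30.9 FPKM in KO. The sum of *Psme1* and *Psme2* was 5.52, 4.46 and 7.23 times *Psme3* in WT and 1.67, 1.89 and 2.19 times in KO (exact permutation p = 0.1, a ratio added after its values were seen). *Psmg3*, an assembly chaperone, had the smallest difference of the list, with 3.996 to 4.80 FPKM in WT and 4.11 to 4.42 FPKM in KO.

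The number of remaining core and regulator subunits that passed the test depended on the setting. Of 11 other 20S core subunits 1 fell and none rose (median log2 fold change -0.26), a share near the 10.5% of all genes that fell. The falls were 4 with median-of-ratios scaling, 5 with the replicate block and 7 without replicate 3 of both groups. It was *Psma5*, with 76.8, 77.8 and 108 FPKM in WT and 48.9, 46.2 and 54.1 FPKM in KO (log2 fold change -0.79, limma adjusted p = 0.00650), and *Psmb1* had the smallest difference, with 18.1 to 27.9 FPKM in WT and 19.3 to 23.6 FPKM in KO. Of 18 subunits of the 19S regulator 8 fell and none rose (median -0.34), led by *Psmd7* (-0.49), *Psmd3* (-0.45) and *Psmc4* (-0.45). *Psmd8* had the smallest difference of these, with 56.2 to 91.2 FPKM in WT and 66.5 to 70.03 FPKM in KO. The number of falls in the 19S regulator lay between 2 and 7 when 1 library was left out and reached 12 under other settings, 1 subunit rose without replicate 3 of both groups, and the calls of *Psmd7* and *Psmc4* were lost in several of these. In all, 13 of 42 proteasome genes other than the immunoproteasome subunits fell and none rose, beside 10.5% and 27.1% of all tested genes.

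Nonclassical class I and class I-like genes went in both directions. Of 21 such genes 14 were expressed highly enough to be tested, of which 9 fell and 3 rose, with a median of -1.29. Over all tested genes 10.5% fell and 27.1% rose, so the share of rises was no larger here than over all genes. The largest falls were those of *H2-M2* (5.42, 4.92 and 4.32 FPKM in WT and 0.110, 0.246 and 0.294 FPKM in KO, log2 fold change -2.91, limma adjusted p = 2.47e-05), *H2-T24* (-2.35) and *H2-Q6* (-2.30). *H2-T23* (Qa-1, which presents signal peptides to NKG2 receptors) was the most abundant of the 9 genes that fell. It had 133, 130.5 and 175 FPKM in WT and 33.4, 32.8 and 40.05 FPKM in KO, and it was named after its values were seen. *H2-M3*, which presents formylated peptides and has the TGACG and ATTGG spacing of *H2-K1*, *H2-D1* and *B2m* in its promoter window, had 13.4, 11.1 and 14.6 FPKM in WT and 14.1, 13.4 and 12.5 FPKM in KO. These overlap. The 3 genes that rose, also named after their values were seen, include 2 that do not present peptides. *Hfe*, a regulator of iron uptake, had 6.46, 7.23 and 6.38 FPKM in WT and 23.2, 24.0 and 25.9 FPKM in KO (log2 fold change 1.79, limma adjusted p = 2.23e-05), and *Fcgrt*, the heavy chain of the neonatal Fc receptor, had 29.6, 25.5 and 24.7 FPKM in WT and 79.0, 80.04 and 91.7 FPKM in KO (log2 fold change 1.64, limma adjusted p = 6.44e-05). The third was *H2-K2*, a neighbour and close relative of *H2-K1*, with 1.77, 1.09 and 1.13 FPKM in WT and 5.11, 4.37 and 5.10 FPKM in KO (log2 fold change 1.57, limma adjusted p = 0.000532). HFE and FCGRT also pair with β2-microglobulin, whose own mRNA fell.

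**Figure D5:**
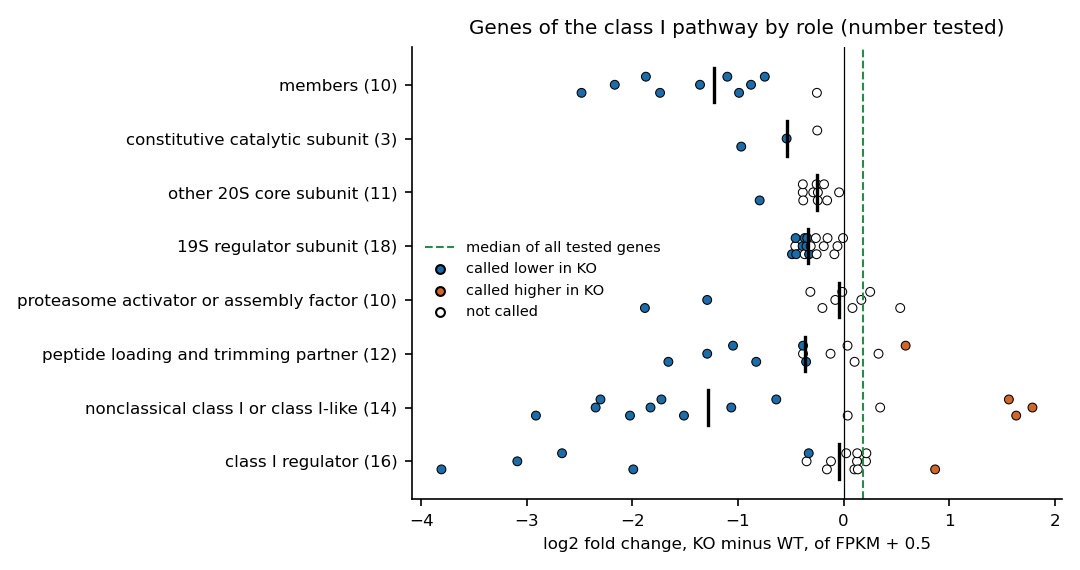
Log2 fold change (KO minus WT, of FPKM + 0.5) of each tested gene of the class I pathway, grouped by role with the number tested, blue for genes that fell, orange for genes that rose and open for genes that did not pass the test. Black bars are the medians of the groups, from -1.29 for nonclassical genes to -0.05 for regulators and for activators or assembly factors, and the dashed line is the median of all tested genes (0.19).

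Of 17 regulators of class I genes 16 were tested, of which 5 fell and 1 rose, beside 10.5% and 27.1% of all tested genes. Those that fell and are named here carry interferon signals. *Irf7* had 40.5, 41.6 and 41.9 FPKM in WT and 2.55, 2.74 and 2.19 FPKM in KO (log2 fold change -3.81, limma adjusted p = 1.86e-06). The groups were far from an overlap. *Stat2*, a part of the ISGF3 complex, had 37.1, 41.2 and 20.5 FPKM in WT and 4.85, 5.01 and 3.87 FPKM in KO (log2 fold change -2.67, limma adjusted p = 0.000394). *Irf1*, which binds class I and *Tap1* promoters, had 45.5, 44.9 and 52.4 FPKM in WT and 11.1, 11.6 and 12.0 FPKM in KO (log2 fold change -1.99, limma adjusted p = 1.44e-05). *Irf9*, the DNA-binding part of ISGF3, fell by 0.33 on the log2 scale (limma adjusted p = 0.0273). That call was lost without any one of the libraries other than WT replicate 3 (limma adjusted p = 0.0625 to 0.0916) and when columns were rescaled to the same sum (0.0745).

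The factors known to occupy the SXY module and the NF-kB site, and the interferon regulatory factors *Irf2* and *Irf8*, were mostly not called. None of the RFX subunits *Rfx5*, *Rfxap* and *Rfxank*, of the NF-Y subunits *Nfya*, *Nfyb* and *Nfyc*, of the NF-kB subunits *Rela* and *Nfkb1*, or of *Irf2* and *Irf8* passed the test. Their log2 fold changes lay between -0.35 for *Nfya* and 0.22 for *Rela*. With median-of-ratios scaling the sign of 7 of them turned and *Rfxank* passed (log2 fold change -0.35, limma adjusted p = 0.0419), and without replicate 3 of both groups *Rela* passed (0.24, limma adjusted p = 0.0390). *Creb1*, a factor of the CRE, rose from 1.98, 1.40 and 1.90 FPKM in WT to 3.85, 3.27 and 3.67 FPKM in KO (log2 fold change 0.87, limma adjusted p = 0.00330). Levels of mRNA do not show the binding of a factor. Over all 92 other genes of the pathway, 84 were tested, 33 fell and 5 rose, with a median of -0.30. Over all tested genes 10.5% fell and 27.1% rose.

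The genes whose pattern over the 6 libraries was most like the mean of the 10 genes were *Gbp2*, *Smpdl3b*, *Gbp3*, *Dck* and *Cxcl16* (Pearson r from 0.9998 to 0.9995 among 6416 genes with at least 5 FPKM). *Gbp2*, a guanylate-binding protein, had 158, 153 and 166 FPKM in WT and 4.88, 4.81 and 6.76 FPKM in KO. *Cxcl16*, a chemokine, had 129.8, 132 and 134 FPKM in WT and 34.0, 33.9 and 37.6 FPKM in KO. The correlation is a description, since the libraries fall into 2 groups and any gene with a clean difference between them comes close.

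In the genome, 7 of the 10 genes lie on chromosome 17 between 33915899 and 35267499 (GRCm38), within the MHC. *Psmb9*, *Tap1*, *Psmb8* and *Tap2* are neighbours there within 34.3 kb, whereas *B2m* is on chromosome 2 and *Nlrc5* and *Psmb10* are on chromosome 8. Of the 63 other tested genes in this stretch of chromosome 17, 9 fell (14.3%) and 14 rose (22.2%), with a median log2 fold change of -0.02, beside 10.5% and 27.1% over all genes. The 3 genes outside the stretch all fell, and 6 of the 7 inside it did.

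The other cell type markers had small values. Summed FPKM of 12 lymphocyte markers was 2.25 to 3.02 in WT and 9.47 to 10.1 in KO, with *Cd3d* listed at 0 in all libraries and *Cd4* and *Cd79b*, which rose, the only 2 tested. Summed FPKM of 8 dendritic cell markers was 0.671 to 1.25 in WT and 0.314 to 0.680 in KO, with *Flt3* listed at 0 in all libraries. Of the 8 macrophage markers 2 fell, *Cd14* (-3.33) and *Fcgr1* (-1.83), and 2 rose, *Adgre1* (0.30) and *Mertk* (0.72). Over all tested genes 10.5% fell and 27.1% rose, so the share of rises was near that of all genes. The part of these cells in the class I result was not tested.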

How the data were processed

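The deposited table holds the authors' FPKM of 55335 mouse Ensembl identifiers, with one column for each of the 6 samples and none left unmatched. The submitters' processing notes name fastp 0.17.1, HISAT2 2.1.0, DESeq2 1.18.1 and R 3.4.3. The genome build, the annotation and the treatment of reads that map to several genes are not given in the sources used here. The labels and the methods name different extraction reagents, library kits and sequencers. FPKM is relative to the total of a library, so a shift in abundant genes moves all others. Of the identifiers 55154 (99.7%) matched GENCODE M21 (GRCm38), the source of symbols and positions, and promoters came from RefSeq (GRCm38.p6).

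Low values of 34186 genes with 1 transcript were compared with multiples of the smallest step of each library. Between 39.4% and 43.3% came within 0.1 of a whole number of steps (20% would at random), so whole reads could not be derived and a count test was not used.

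The 13367 genes whose mean reached 0.5 FPKM were tested on the scale log2(FPKM + 0.5). The test was that of limma 3.58.1 (R 4.3.3, lmFit and eBayes with trend, 2-sided, no covariate), with Benjamini-Hochberg adjustment over these genes. This scale understates the change of low genes. The fit was checked on simulated data of independent values. These hold no correlation between genes or libraries, so the check does not vouch for the calls made here. Ratios within a library were tested with exact permutation tests (scipy 1.17.1). Lists of 7 roles and 4 cell types are described by counts and medians. Named genes are the 10 members, *Psmb5*, *Psmb6*, *Psmb7*, all regulators but 1 that is not reported here, from each other list of the pathway up to 3 genes with the largest change that passed the test and the gene with the smallest, the 5 genes most like the members' mean, *Cd177*, *Ly6g* and the highest gene of the marker lists. The other genes named were chosen after their values were seen. The members, lists and tests were chosen with earlier results of these data known. The alternatives were pseudocounts of 0.1 and 1, no filter or a mean of at least 5 FPKM, median-of-ratios scaling, rescaling each column to the same sum, a replicate block, each library left out in turn and, added after the data were seen, both libraries of replicate 3 left out.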

Additional observations from a re-analysis of the deposited data

How the results depend on the processing

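All 10 class I and immunoproteasome genes kept their direction in all 14 alternatives, and 9 kept their call. *H2-D1* gained it with median-of-ratios scaling, with columns rescaled to the same sum (limma adjusted p = 0.0190), without WT replicate 3 (0.0475), without replicate 3 of both groups and with the replicate block. Replicate numbers did not pair the libraries throughout, since the deviations of same-numbered libraries correlated at 0.116, 0.036 and 0.264. WT replicate 1 correlated best with KO replicate 2. The 0.264 of replicate 3 was the highest of all pairs, and both replicate 3 libraries stood apart on the second principal component. A cause shared by the replicate 3 libraries was not tested. With the replicate block 5934 genes passed in place of 5027, 10 members in place of 9 (*H2-D1* limma adjusted p = 0.0224) and 50 of the other pathway genes in place of 38. The blocked test of the ratios, an exact sign-flip permutation test, gave p = 0.25, the smallest it can give for 3 pairs. A filter at a mean of 5 FPKM left 2739 genes passing, of fewer tested. Leaving out 1 library gave 3479 to 5966 genes and 28 to 39 other pathway genes, and leaving out replicate 3 of both groups gave 6469 and 55. Median-of-ratios scaling moved the median log2 fold change of all genes from 0.19 to -0.01 and the share of falls among all calls from 28.0% to 52.3%, and rescaling moved the median to 0.22. The heavy to light chain log2 difference ranged from 0.48 to 0.80 and the immunoproteasome one from -0.73 to -0.68. Falls called among other 20S core subunits went from 1 to at most 7 and among activators from 2 to at most 5.

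Genes with a difference near 0 changed sign. Under median-of-ratios scaling the log2 fold changes were -0.18 for *H2-M3*, -0.19 for *Irf2*, -0.0077 for *Irf8*, -0.11 for *Nfkb1*, -0.067 for *Nfyb*, -0.086 for *Nfyc*, -0.010 for *Rela*, -0.042 for *Rfx5* and -0.18 for *Tpp2*. With columns rescaled they were 0.012 for *Psmd8* and 0.0031 for *Psmg3*. With libraries left out, singly or both of replicate 3, they ranged from -0.067 to 0.17 for *H2-M3*, -0.046 to 0.087 for *Irf2*, -0.17 to 0.38 for *Irf8*, -0.082 to 0.19 for *Nfkb1*, -0.16 to 0.14 for *Psmb1*, -0.15 to 0.22 for *Psmd8*, -0.059 to 0.059 for *Psmg3*, -0.22 to 0.0079 for *Rfxap* and -0.017 to 0.11 for *Tpp2*. Under median-of-ratios scaling the median of all tested genes moved too, from 0.19 to -0.01. The cause of the changes with libraries left out was not tested. Depth limits the genes near the filter, such as *Ciita* and the KO values of *H2-M2*.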
